A study of Homo sapiens with 6 samples.

Results

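Tight junction scaffolds, occludin and polarity genes were examined as 9 genes, taken from the deposited expression table by gene name among its 58825 genes. They were the scaffolds TJP1 and TJP3, the plaque proteins CGN and CGNL1, the 4-span membrane proteins OCLN, MARVELD2 and MARVELD3, the adhesion molecule F11R and the polarity gene PARD3. Of these, 8 reached the mean level required for a test, 0.1 FPKM (fragments counted per kilobase and corrected for library size), as 19510 genes did in all. MARVELD2 was the exception. Poly(A) RNA was sequenced from HK-2 cells, a human proximal tubular cell line that has been immortalized, in 3 libraries of untreated cells (Control) and 3 libraries of cells given oxidized low-density lipoprotein (OX-LDL, 25 μg/ml for 48 h). The labels give no time for the Control cells, and no source used here says whether the 3 libraries of a group came from separate cultures, so each p-value measures the spread between these libraries.

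Tight junctions seal the space between neighbouring epithelial cells near their apical border and keep apical and basolateral membrane apart. Claudins, occludin and its relatives and junctional adhesion molecules cross the membrane, and the ZO scaffolds and cingulin tie them to actin and myosin. PAR, Crumbs and Scribble proteins set where along the cell side the junction forms. The proximal tubule, which HK-2 cells come from, has a leaky epithelium with short junctions.

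The libraries held between 62561347 and 76797607 estimated counts. These counts stepped in units of about 4 per read pair, and 12 counts (3 read pairs) was taken as the limit of detection. The epithelial genes EPCAM and KRT18 were well expressed, with 48.6 to 56.7 FPKM of EPCAM over the 6 libraries. The proximal tubule receptor LRP2 had 0 counts in every library, and CDH1, which encodes E-cadherin, lay between 0.0276 and 0.144 FPKM. The proximal tubule list summed to 19.0 to 26.7 FPKM in Control and 16.1 to 17.9 FPKM in OX-LDL, nearly all of it GGT1, which the table splits over 2 identifiers. The 6 kidney epithelial markers summed to 163 to 190 FPKM in Control and 183 to 217 FPKM in OX-LDL. The 4 endothelial markers summed to at most 0.0959 FPKM in any library, with CDH5, VWF and KDR at or under the detection limit. The 6 fibroblast markers summed to 0.525 to 0.748 FPKM in Control and 0.711 to 0.966 FPKM in OX-LDL, with COL1A2, PDGFRA and DCN at or under that limit. The 4 leukocyte markers summed to 2.81 to 7.61 FPKM in Control and 8.92 to 13.7 FPKM in OX-LDL, nearly all of it CD68, while PTPRC and LYZ stayed at or under the detection limit.

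After OX-LDL, 1 of the 8 tested genes fell and 1 rose by edgeR's quasi-likelihood test at an adjusted p under 0.05. CGN, which encodes cingulin, fell to a fold of 0.416, and F11R, which encodes junctional adhesion molecule A, rose to a fold of 1.35. TJP1 and PARD3, the abundant ZO-1 scaffold and the PAR polarity scaffold, had folds of 0.995 and 1.07, neither past the threshold. Among all genes tested, 15.3% passed the same threshold, 7.91% with a higher and 7.42% with a lower level, beside 25% of these 8 genes. The fold changes were negative for 5 of the 8 and positive for 3, with a median log2 fold change of -0.36 beside 0.00 to 2 decimals over all genes.

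**Figure D1:**
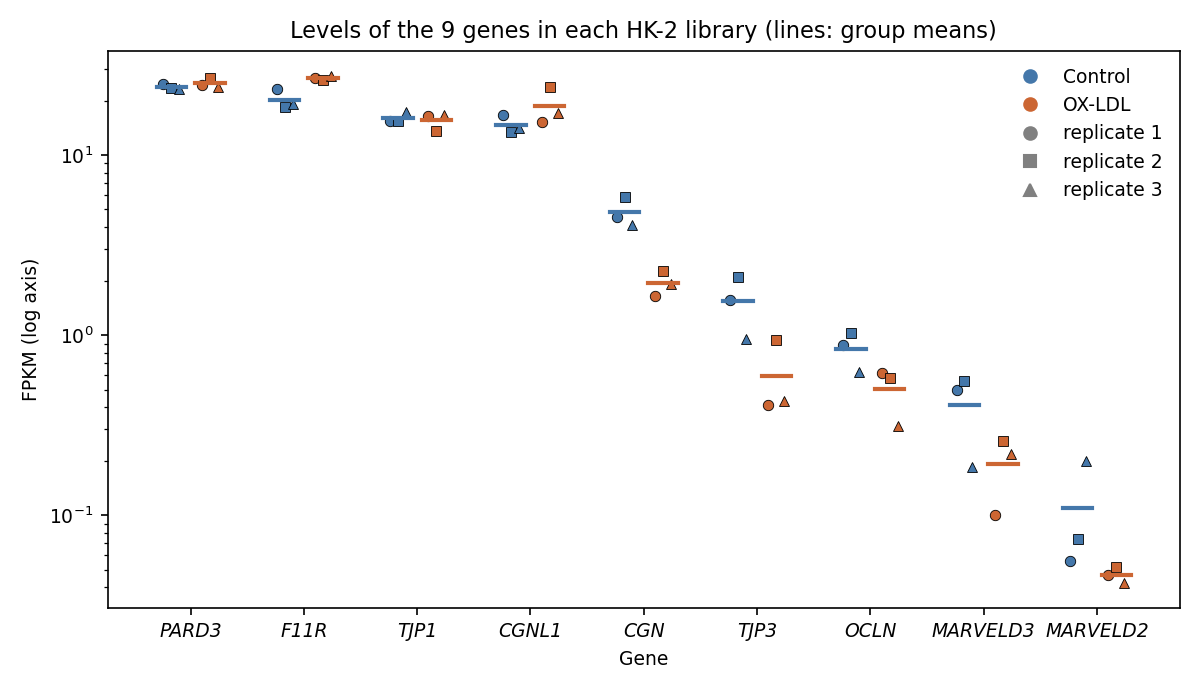
FPKM on a log axis for the 9 genes in the 3 Control and 3 OX-LDL libraries, with a marker shape for each replicate number and a line at each group mean. PARD3, F11R, TJP1 and CGNL1 lie above 13 FPKM in every library, and the other 5 genes lie below 6 FPKM.

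The genes fell into an abundant and a scarce set. In Control the order of mean FPKM was PARD3, F11R, TJP1, CGNL1, CGN, TJP3, OCLN, MARVELD3 and MARVELD2. The Control ranges overlapped between the neighbours TJP1 and CGNL1, between TJP3 and OCLN and between MARVELD3 and MARVELD2, so these pairs were not separated by level. In OX-LDL F11R stood first, at a range that overlapped that of PARD3, CGNL1 moved ahead of TJP1 within overlapping ranges, and the rest kept their places.

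The summed FPKM of PARD3, F11R, TJP1 and CGNL1 was 80.3, 70.9 and 73.8 in Control and 83.2, 90.2 and 85.2 in OX-LDL. The summed FPKM of the 5 scarcer genes was 7.51, 9.58 and 6.06 in Control and 2.83, 4.10 and 2.94 in OX-LDL. The scarcer genes thus made up 7.60% to 11.9% of the FPKM of all 9 in Control libraries and 3.29% to 4.35% in OX-LDL libraries. CGN made up most of the 5-gene sum, with means of 4.81 FPKM in Control and 1.95 in OX-LDL. It was the only one of the 5 that passed the adjusted threshold by edgeR. The sum of all 9 ran from 79.8 to 87.8 FPKM in Control and from 86.0 to 94.3 in OX-LDL, and those ranges overlapped. These sums were split by level after the values had been seen and carry no test.

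Promoter sequence was available for 6 of the 9 genes in RefSeq (GRCh38.p14), as 11 windows from 250 bases before to 50 bases after a transcript start. The E-box CAGGTG, read by SNAI and ZEB factors that act on epithelial junction genes, was looked for on both strands. It was present in 4 windows, which belonged to OCLN, TJP1 and TJP3, and in 20.6% of 35116 promoter windows of all genes. The grainyhead motif AACCGGTT, also looked for on both strands, was in 0 of the 11 windows and in 0.134% of all windows. The matches are shown because OCLN and TJP3 were lower in each OX-LDL library than in each Control library whereas TJP1 was not. Neither OCLN nor TJP3 passed the adjusted threshold by edgeR. CGN and MARVELD2 were also lower in each OX-LDL library, and their windows held neither motif. A link between the E-box and these levels was not tested. The matches are written 5′ to 3′ on the gene's strand with the E-box in capitals.
OCLN (chr5:69492502-69492531, + strand, E-box beginning 33 bases before a start): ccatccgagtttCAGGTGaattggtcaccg
OCLN (chr5:69492645-69492674, + strand, 133 bases before another start): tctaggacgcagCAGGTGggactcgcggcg
TJP1 (chr15:29969120-29969149, − strand, 88 bases before a start): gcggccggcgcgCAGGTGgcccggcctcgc
TJP3 (chr19:3721718-3721747, + strand, 7 bases before a start inside the gene): gaggaagaggggCAGGTGcagccgggagct
A further OCLN match, in the same window as that at 133 bases, begins at base 36 of the transcript and is not printed. The OCLN and TJP3 stretches lie within exons of other transcripts of the gene in GENCODE, and the TJP1 stretch lies in none.

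The windows of the paralogues CGN and CGNL1 held neither motif. The 100 bases before a RefSeq transcript start of each are shown because these related genes parted in level, with the letters of each CG dinucleotide in capitals. The stretch held 10 CG dinucleotides in CGN and 15 in CGNL1, and neither stretch lies in an exon of its gene. Both stretches lie inside the span that the authors' table gives the gene.
CGN (chr1:151511287-151511386, + strand): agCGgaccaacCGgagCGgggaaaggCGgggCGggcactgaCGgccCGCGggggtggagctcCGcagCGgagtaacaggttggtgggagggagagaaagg
CGNL1 (chr15:57376405-57376504, + strand): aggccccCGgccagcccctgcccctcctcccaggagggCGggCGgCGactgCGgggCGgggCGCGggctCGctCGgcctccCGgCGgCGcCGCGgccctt

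Among the scaffolds, TJP1 encodes ZO-1, which binds the tails of claudins and occludin and links them to actin. The gene spans chr15:29699367-29968865 on the − strand of GRCh38. TJP1 measured 15.5, 15.4 and 17.3 FPKM in the Control libraries and 16.5, 13.7 and 16.8 FPKM in the OX-LDL libraries. Both groups covered much the same range, with OX-LDL replicate 2 lowest and Control replicate 3 highest. TJP1 had a log2 fold change of -0.01 ± 0.10 (SE, n = 3 per group, adjusted p = 0.970 by edgeR). The 95% interval of its fold ran from 0.844 to 1.17, on 13744 to 17105 counts per library.

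TJP3 encodes ZO-3, an epithelial member of the same scaffold family, and lies at chr19:3708362-3750813 on the + strand. TJP3 measured 1.57, 2.11 and 0.952 FPKM in Control and 0.410, 0.946 and 0.432 FPKM in OX-LDL. Control replicate 3 and OX-LDL replicate 2 almost met, so the groups barely separated. APBA3 overlaps TJP3 on the opposite strand, with mean counts of 370 in Control and 373 in OX-LDL, against 121 to 748 for TJP3. No source used here states that counting kept the strands apart, so reads of TJP3 and APBA3 may be mixed. For TJP3 the log2 fold change was -1.33 ± 0.42 (SE, n = 3 per group), a fold of 0.399 with an interval from 0.199 to 0.800. Its adjusted p was 0.0827 by edgeR. It did meet the limits in the study's results, a fold above 2 or below 0.5 with p under 0.05, where p is read here as unadjusted. The study's methods speak of adjusted p-values, and with the adjusted p by edgeR TJP3 would not meet them. With 1 library left out, the adjusted p of TJP3 was 0.0286 by edgeR without OX-LDL replicate 2 and between 0.0684 and 0.232 in the other 5 fits. In 3 of those, which left out replicate 2 of Control or replicate 1 or 3 of OX-LDL, TJP3 no longer met the study's limits either. DESeq2 on all 6 libraries gave TJP3 an adjusted p of 0.00721. It called 4430 of the 19510 genes tested, beside 2991 by edgeR.

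As a percent of TJP1, TJP3 measured 10.1, 13.6 and 5.50 in Control and 2.48, 6.93 and 2.57 in OX-LDL. The ranges overlapped, and a two-sided exact permutation test gave p = 0.2.

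The plaque proteins differed from each other. CGN encodes cingulin, which binds ZO scaffolds and myosin and holds the exchange factor GEF-H1 at the junction, and it lies at chr1:151510510-151538692 on the + strand. CGN measured 4.51, 5.82 and 4.11 FPKM in Control and 1.66, 2.26 and 1.93 FPKM in OX-LDL. Every OX-LDL library lay below every Control library, and the lowest Control value was well above the highest OX-LDL value. CGN fell by 1.27 ± 0.17 on the log2 scale (SE, n = 3 per group, adjusted p = 0.00681 by edgeR), from 4.81 ± 0.893 to 1.95 ± 0.303 FPKM (SD). The fold of 0.416 had an interval from 0.313 to 0.552 and also met the study's limits. With the unadjusted p, 2 of the 8 genes were past those limits, CGN and TJP3, beside 6.36% of all genes tested.

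CGNL1 encodes paracingulin, which shares cingulin's architecture and is found at both tight and adherens junctions, and it lies at chr15:57375967-57550727 on the + strand. CGNL1 measured 16.6, 13.5 and 14.0 FPKM in Control and 15.3, 23.7 and 17.0 FPKM in OX-LDL. OX-LDL replicate 2 stood above the other libraries, and OX-LDL replicate 1 lay inside the Control range. The log2 fold change of CGNL1 was 0.38 ± 0.18 (SE, n = 3 per group, adjusted p = 0.216 by edgeR). Without OX-LDL replicate 2 it was 0.17.

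CGN as a percent of CGNL1 measured 27.1, 43.2 and 29.2 in Control and 10.8, 9.54 and 11.4 in OX-LDL. The ratio was 33.2 ± 8.74% in Control and 10.6 ± 0.936% in OX-LDL (SD, n = 3 each), and the groups did not overlap. A two-sided exact permutation test gave p = 0.1, the smallest that 3 against 3 libraries allow. It was 1 of 4 such ratios, each chosen with results of these data known.

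**Figure D2:**
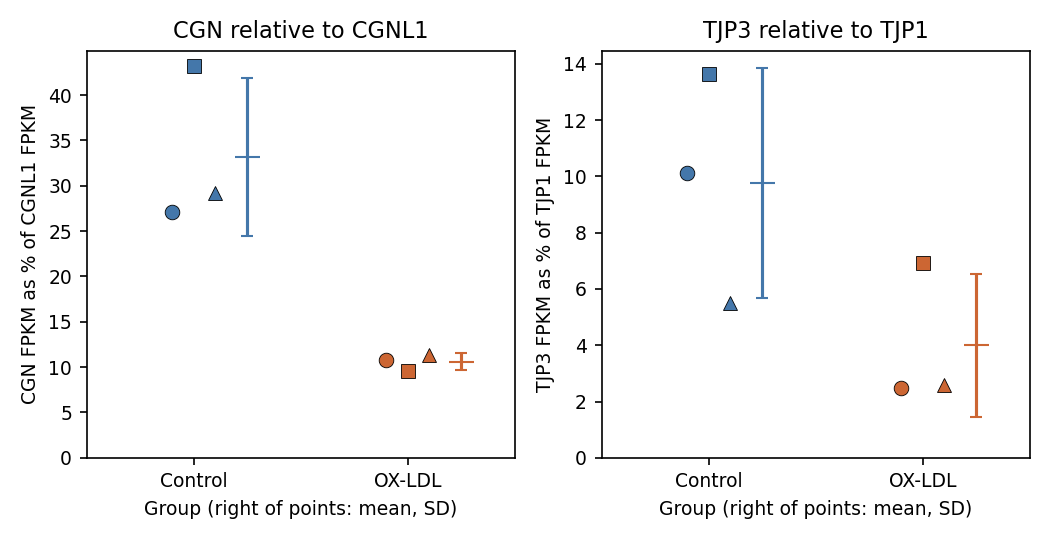
CGN FPKM as a percent of CGNL1 FPKM (left) and TJP3 FPKM as a percent of TJP1 FPKM (right) in each library, with the mean and SD of each group beside its points. CGN lies at 27.1% or more of CGNL1 in Control and at 11.4% or less in OX-LDL, whereas the TJP3 ranges overlap.

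OCLN, MARVELD2 and MARVELD3 encode occludin, tricellulin and the third MARVEL-domain protein of the junction. Occludin lies along the contact between a pair of cells, and tricellulin gathers where 3 cells meet. OCLN is at chr5:69492292-69558104 and MARVELD2 at chr5:69415065-69444330, both on the + strand with 47961 bases between them. MARVELD3 is at chr16:71626161-71642114 on the + strand. None of the 3 reached 2 FPKM in any library.

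OCLN measured 0.880, 1.03 and 0.622 FPKM in Control and 0.617, 0.582 and 0.312 FPKM in OX-LDL. Each OX-LDL library lay below each Control library, but Control replicate 3 and OX-LDL replicate 1 almost met. The log2 fold change of OCLN was -0.71 ± 0.31 (SE, n = 3 per group, adjusted p = 0.174 by edgeR). Its fold of 0.611 had an interval from 0.369 to 1.01, on 193 to 620 counts per library. Without OX-LDL replicate 3 the log2 fold change was -0.46. A near copy listed as OCLNP1, whose reads the counting may split with OCLN, had 0, 24 and 34 counts in Control and 0 in each OX-LDL library.

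MARVELD3 measured 0.495, 0.556 and 0.186 FPKM in Control and 0.101, 0.260 and 0.219 FPKM in OX-LDL. Control replicate 3 lay inside the OX-LDL range, while the other 2 Control libraries were above it. MARVELD3 had a log2 fold change of -1.04 ± 0.50 (SE, n = 3 per group, adjusted p = 0.217 by edgeR). MARVELD3 overlaps PHLPP2 on the opposite strand, which had mean counts of 4406 in Control and 5495 in OX-LDL, against 50 to 322 counts for MARVELD3. No source used here states that counting kept the strands apart, so reads of this pair may be mixed.

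MARVELD2 measured 0.0558, 0.0739 and 0.199 FPKM in Control and 0.0470, 0.0515 and 0.0425 FPKM in OX-LDL. The groups did not overlap, and Control replicate 3 was the highest library. These values rest on 27, 36 and 88 counts in Control and on 19, 26 and 21 in OX-LDL, where every library was within a few read pairs of the detection limit. In a fit with no minimum level, which took in 31096 genes, the log2 fold change of MARVELD2 was -1.18 ± 0.56 (SE, n = 3 per group, adjusted p = 0.301 by edgeR).

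As a percent of OCLN, MARVELD3 measured between 29.9 and 56.3 in Control and between 16.4 and 70.0 in OX-LDL, and MARVELD2 between 6.34 and 32.0 in Control and between 7.62 and 13.6 in OX-LDL. Two-sided exact permutation tests gave p = 0.8 and p = 1.

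F11R encodes junctional adhesion molecule A, an immunoglobulin-like receptor that binds PAR3 and ZO-1 while junctions assemble. The gene spans chr1:160995211-161021343 on the − strand. F11R measured 23.2, 18.6 and 19.1 FPKM in Control and 26.9, 26.2 and 27.4 FPKM in OX-LDL. Each OX-LDL library lay above each Control library, and the OX-LDL libraries were close to each other. F11R rose by 0.43 ± 0.11 on the log2 scale (SE, n = 3 per group, adjusted p = 0.0371 by edgeR), a fold of 1.35 with an interval from 1.14 to 1.60.

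The F11R call was fragile. Leaving out Control replicate 2 or 3 gave an adjusted p of 0.113 or 0.101 by edgeR. Leaving out OX-LDL replicate 1, 2 or 3 gave 0.0954, 0.0576 or 0.111. Without Control replicate 1, whose value was nearest to OX-LDL, it was 0.0175. The unadjusted p stayed at or below 0.0187 in each of these fits. AL591806 overlaps F11R on the same strand, with mean counts of 4.67 in Control and 53.3 in OX-LDL. F11R itself had 7890 to 12573 counts per library.

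PARD3 encodes PAR3, the scaffold that joins the PAR6 and atypical protein kinase C module to junctional adhesion molecules. It lies at chr10:34109560-34815325 on the − strand. PARD3 measured 24.9, 23.4 and 23.3 FPKM in Control and 24.5, 26.7 and 24.0 FPKM in OX-LDL. The groups overlapped, with OX-LDL replicate 2 highest. The log2 fold change of PARD3 was 0.10 ± 0.08 (SE, n = 3 per group, adjusted p = 0.420 by edgeR), and the fold interval ran from 0.948 to 1.21.

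**Figure D3:**
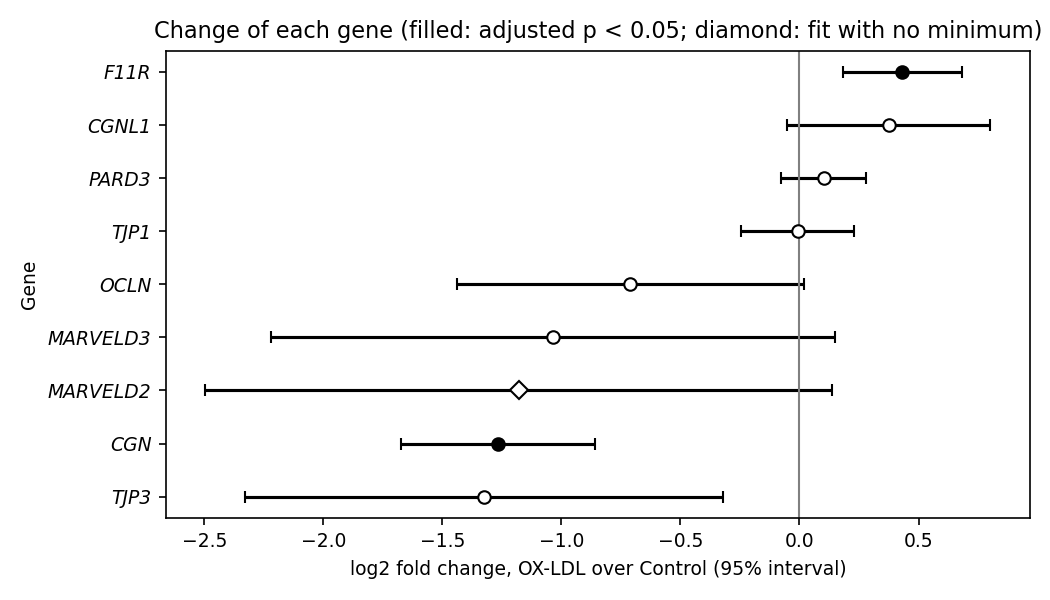
Log2 fold change of each gene, OX-LDL over Control, with its 95% interval from edgeR. Filled points passed an adjusted p of 0.05, and the diamond for MARVELD2 comes from the fit with no minimum level. CGN lies wholly below 0 and F11R wholly above it, TJP3 lies below 0 without passing adjustment, and the other intervals include 0.

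Groups did not overlap in 4 of the 8 tested genes, with TJP3, CGN and OCLN lower and F11R higher in OX-LDL, beside 37.2% of all genes tested. TJP3, CGN and MARVELD3 shared their order of libraries, with Control replicate 2 above replicate 1 above replicate 3 and with OX-LDL replicate 2 the highest of its group. That order was found in 1185 of the 19510 genes tested (6.07%), but it was read from these same genes, so the share carries no test. The order was shared by the renal lineage factor PAX8, which measured 49.2, 58.0 and 32.6 FPKM in Control and 17.8, 24.2 and 16.3 FPKM in OX-LDL. Within OX-LDL, however, PAX8 had replicate 1 above replicate 3, whereas TJP3, CGN and MARVELD3 had replicate 3 above replicate 1. The scarcer kidney epithelial marker PAX2 shared the order too, and within OX-LDL it also had replicate 3 above replicate 1. PAX2 measured 0.538, 0.661 and 0.302 FPKM in Control and 0.225, 0.268 and 0.238 FPKM in OX-LDL. Its groups did not overlap, but it did not pass the threshold (adjusted p = 0.0781 by edgeR). PAX8 fell by 1.23 ± 0.24 on the log2 scale (SE, n = 3 per group, adjusted p = 0.0182 by edgeR). KRT8, a keratin of simple epithelia, rose by 0.83 (adjusted p = 0.0116 by edgeR), and EPCAM measured 51.2 ± 3.68 FPKM in Control and 53.1 ± 3.13 in OX-LDL (SD). The part of these shifts in the values of CGN and TJP3 was not tested, and in RNA of whole cultures fewer cells with a transcript and less transcript per cell cannot be told apart.

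A list of 45 other junction and polarity genes, with 41 tested, was set beside these genes by role. Of the 41, 2 rose and 5 fell, or 17.1% beside 15.3% of all genes tested, and their median log2 fold change was -0.02. Those that fell were MAGI1, MPDZ, PARD6A, DLG1 and ARHGEF2. Those that rose were MPP5 and MYLK. CRB1, CRB2, JAM2 and ILDR1 were too low to be tested.

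Of 10 further scaffolds 2 fell and 0 rose. MAGI1, an inverted membrane-associated guanylate kinase, measured 5.83, 5.43 and 5.15 FPKM in Control and 3.06, 3.37 and 3.38 in OX-LDL. All OX-LDL libraries were below all Control libraries, and MAGI1 fell by 0.71 ± 0.09 on the log2 scale (SE, n = 3 per group, adjusted p = 0.00516 by edgeR). MPDZ, the multi-PDZ protein MUPP1, went from 6.96 ± 0.199 to 5.23 ± 0.412 FPKM (SD, n = 3 each, log2 fold change -0.38, adjusted p = 0.0284 by edgeR). Without 1 library the adjusted p of MPDZ reached up to 0.103, and it stayed under 0.05 only without OX-LDL replicate 2. AMOT, which encodes angiomotin, had a log2 fold change of -0.37 (adjusted p = 0.0814 by edgeR).

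Of 6 further transmembrane genes 0 passed edgeR's adjusted threshold and 1 had an unadjusted p under 0.05. DESeq2, which called more genes than edgeR among all genes tested, called 1 of the 6. The adhesion molecule CLMP had the smallest p, with 8.26 ± 0.676 FPKM in Control and 5.68 ± 1.46 in OX-LDL (SD, n = 3 each, adjusted p = 0.116 by edgeR). Log2 fold changes were 0.31 for LSR, a receptor of tricellular contacts, -0.11 for the virus receptor CXADR and -0.22 for JAM3, a relative of F11R.

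Among 7 PAR complex genes only PARD6A, an adaptor between PAR3, CDC42 and atypical protein kinase C, passed. PARD6A measured 0.948, 1.17 and 1.63 FPKM in Control and 0.288, 0.441 and 0.600 in OX-LDL. The groups did not overlap, and PARD6A fell by 1.45 ± 0.36 on the log2 scale (SE, n = 3 per group, adjusted p = 0.0412 by edgeR). With any 1 of the 6 libraries left out it did not pass, and its adjusted p ran from 0.0611 to 0.110. PARD6B, the more abundant adaptor at 9.96 ± 0.975 FPKM in Control and 8.76 ± 1.64 in OX-LDL (SD), did not pass, nor did PARD3B or the GTPase CDC42, with log2 fold changes of -0.39 and 0.15.

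Of 3 Crumbs complex genes, MPP5, which encodes PALS1, rose. MPP5 measured 11.9 ± 1.05 FPKM in Control and 17.2 ± 1.60 in OX-LDL (SD, n = 3 each), and each OX-LDL library lay above each Control library. The log2 fold change was 0.56 ± 0.11 (SE, n = 3 per group, adjusted p = 0.0175 by edgeR), and the adjusted p reached 0.0642 with 1 library left out. It missed the threshold when replicate 2 or 3 of Control, or replicate 1 or 3 of OX-LDL, was left out. CRB3, the epithelial Crumbs protein, and LIN7C had log2 fold changes of -0.16 and 0.05, neither past the threshold.

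Of 6 genes listed with the Scribble complex, DLG1, a basolateral scaffold, fell. That list takes in the kinases MARK2 and STK11, which are not core members of the complex. DLG1 measured 23.7, 24.3 and 25.0 FPKM in Control and 15.7, 15.1 and 16.0 in OX-LDL, and the groups stood well apart. The log2 fold change was -0.61 ± 0.06 (SE, n = 3 per group, adjusted p = 0.00250 by edgeR), a fold of 0.656. The kinases MARK2 and STK11 and the scaffold LLGL1 had log2 fold changes from -0.24 to -0.17, each without passing.

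ARHGEF2 encodes GEF-H1, the exchange factor that cingulin binds. ARHGEF2 measured 6.19, 8.05 and 7.92 FPKM in Control and 3.88, 2.66 and 3.51 in OX-LDL. The groups did not overlap, and ARHGEF2 fell by 1.11 ± 0.16 on the log2 scale (SE, n = 3 per group, adjusted p = 0.00829 by edgeR). MYLK encodes myosin light chain kinase, which drives contraction of the actin belt at the junction. MYLK measured 9.14, 7.06 and 8.05 FPKM in Control and 12.7, 15.3 and 12.4 in OX-LDL, and rose by 0.77 ± 0.13 on the log2 scale (SE, n = 3 per group, adjusted p = 0.0128 by edgeR). ARHGEF18, an exchange factor found at junctions, had a log2 fold change of 0.35 (adjusted p = 0.0735 by edgeR). MAGI1, DLG1, ARHGEF2 and MYLK passed whichever of the 6 libraries was left out.

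**Figure D4:**
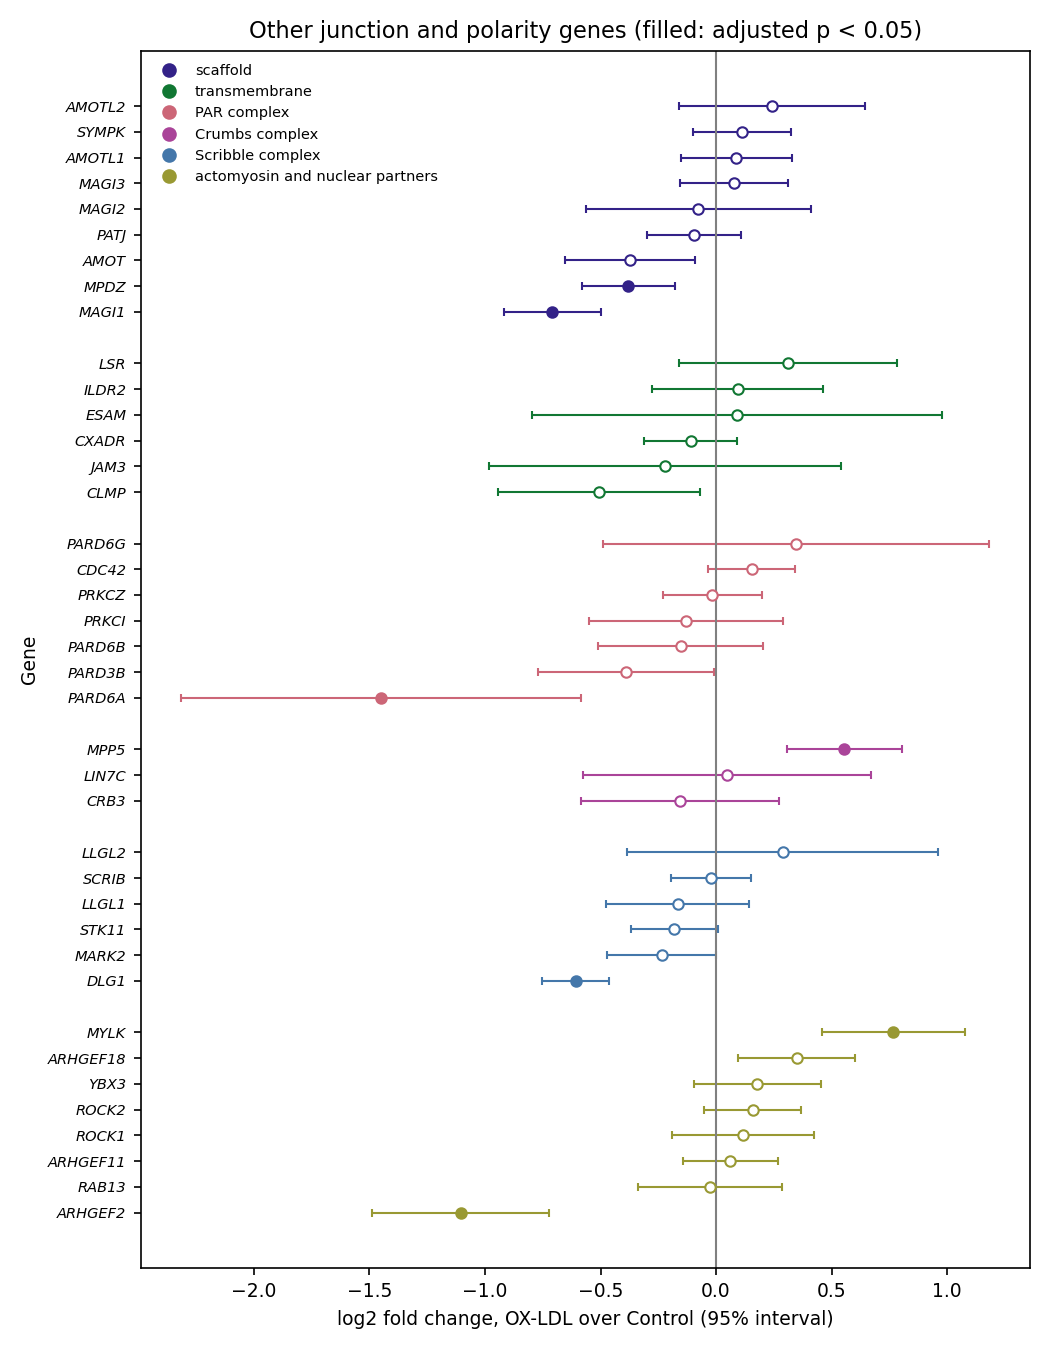
Log2 fold change, OX-LDL over Control, with its 95% interval from edgeR for 39 of the 41 tested junction and polarity genes other than the 9, grouped and coloured by role. Filled points passed an adjusted p of 0.05. There are 2 filled points to the right of 0, MPP5 and MYLK, and 5 to the left, and most intervals include 0.

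The authors' table annotates 126 genes, all 9 among them, with the GO term bicellular tight junction. Of its 99 tested genes 10 rose and 14 fell, or 24.2% beside 15.3% of all genes tested, with a median log2 fold change of 0.03. The study named this term from the same libraries, so that share is not independent evidence. Leaving out the 9 genes and the claudins left 78 tested genes, of which 9 rose and 10 fell. The largest falls in the term, among genes outside both lists that passed the adjusted threshold and averaged 1 FPKM or more, were those of CLDN1, CLDN16 and MPP7. MPP7, a partner of DLG1, went from 1.40 ± 0.0599 to 0.626 ± 0.150 FPKM (SD, n = 3 each, log2 fold change -1.13, adjusted p = 0.0158 by edgeR). Under the same conditions the largest rises were those of FRMD4B, SAPCD2 and CYTH2. FRMD4B, a scaffold that binds the exchange factors of ARF6, went from 1.62 ± 0.283 to 3.33 ± 0.274 FPKM (SD, n = 3 each, log2 fold change 1.07, adjusted p = 0.00793 by edgeR). SAPCD2, a cortical polarity regulator of the mitotic spindle, rose by 0.70 (adjusted p = 0.00491), and CYTH2, an ARF exchange factor, by 0.68 (adjusted p = 0.0134 by edgeR). Without Control replicate 2 or OX-LDL replicate 1, MPP7 and CYTH2 did not pass, with adjusted p up to 0.0562 and 0.0561 by edgeR.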

How the data were processed

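Per the labels, poly(A) RNA was made into dUTP libraries and sequenced as read pairs. The submitters' processing notes name cutadapt 1.9, HISAT2 2.0.4, StringTie 1.3.4d, edgeR, DESeq2 and GRCh38. The strand setting used in counting is not given in the sources used here. The authors deposited estimated counts, as whole numbers not scaled for library size, and FPKM values scaled by transcript length and library size, with a count of 0 listed at 0.0001 FPKM. The deposited counts were used without rounding. They peaked at 4, 8 and 12, which was read as 4 counts per read pair, so the libraries held 15640337 to 19199402 read pairs. On read pairs, the chi-square per gene between libraries of a group was 9.54 to 16.3, far above the value near 1 that repeats of a single library would give.

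Genes that averaged 0.1 FPKM or more were fitted with edgeR 4.0.16 in R 4.3.3 (TMM factors, glmQLFit, glmQLFTest, group as the only term), and p-values were adjusted by Benjamini-Hochberg over all 19510 genes. SEs were derived from the quasi-likelihood F, as the log2 fold change over its square root. Ratios were compared with two-sided exact permutation tests. The members and lists were chosen with earlier results of these data known. Each member was named, then at most 4 genes of each role with the smallest p-values, and from the GO term the 3 largest rises and falls past the threshold that averaged 1 FPKM or more and are in neither list, with claudins named only. A few genes that this rule names are not reported here. Coordinates are those of the authors' table on GRCh38, and promoters are from RefSeq. The 16 alternatives were DESeq2 1.42.0, limma 3.58.1 on log2(FPKM + 0.1) and log2(FPKM + 1), 3 other scalings, other minimum levels, counts divided by 4, a replicate block and leaving out each library. The fits were also run on simulated counts, and the outcome of that run is not reported here.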

Additional observations from a re-analysis of the deposited data

How the results depend on the processing

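CGN passed with a negative sign in all 16 alternatives. In the main fit the number of the 9 genes called was 2. It was 3 by DESeq2 and 1 with no minimum level, where the adjusted p of F11R was 0.0501. Fits with 1 library left out or with a replicate block are given below. By fold limits and unadjusted p the number was 2 in the main fit. It was 0 by limma on log2(FPKM + 1), a pseudocount that shrinks folds of low genes, and 3 by DESeq2, which added MARVELD3. TJP1 had a positive log2 fold change of 0.015 with upper quartile factors, of 0.0016 with a minimum of 1 FPKM, and from -0.063 to 0.081 with 1 library left out, positive without Control replicate 3 or OX-LDL replicate 2, and never passed. DESeq2 called CGN, F11R and TJP3, and it called 4430 of the 19510 genes tested, beside 2991 by edgeR.

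Leaving out 1 library gave 1161 to 2943 calls over all genes, beside 2991, 1 to 2 of the 9 genes, 1 to 3 by fold limits, 4 to 8 of the other junction genes, beside 7, and 14 to 26 of the GO term, beside 24. The fewest calls over all genes came without Control replicate 2.

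Deviations of same-numbered libraries had correlations of -0.04, -0.0031 and 0.04, so the numbers were not taken as pairing the libraries. With a replicate block 1636 genes were called. CGN and TJP3 (adjusted p = 0.0445 by edgeR) passed, and F11R did not (adjusted p = 0.0679). The cause was not tested. No scaling moved the median of all genes by more than 0.04 on the log2 scale. MARVELD2, with a highest count of 88, is the value that depth limits most.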
